A study of Homo sapiens with 8 samples.

Results

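The 38 genes described here act in G2 and mitosis, and they were taken by symbol from a set of names covering mitotic kinases and cyclins, kinesins, kinetochore and checkpoint proteins, the chromosomal passenger complex, anaphase, cytokinesis, the transcription factor FOXM1 and the proliferation marker MKI67. All 38 were among the 16608 genes with counts in all 8 RNA-seq libraries and among the 16320 genes tested. The rule that selects them uses no measured value, but the members were chosen with earlier results of these data known. The cells were SupB15, an established human line of Philadelphia chromosome-positive pre-B acute lymphoblastic leukemia. There were 2 libraries from independent samples for each of 4 treatments. The controls received DMSO for 46 h. The second group received the compound labelled 1035 at 2 µM for 46 h, the third doxorubicin at 0.1 µM for 10 h, and the fourth 1035 at 2 µM for 36 h and then doxorubicin at 0.1 µM for 10 h, called the combination below. All libraries came from this 1 cell line. DMSO and doxorubicin differed in length of treatment as well as in agent, as did doxorubicin and the combination, and these cannot be told apart. The sources used here do not give whether 1035 was removed before doxorubicin was added. Exposure to 1035 may therefore also differ between 1035 and the combination.

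Entry into mitosis depends on the kinase CDK1 bound to a B-type cyclin, which the CDC25 phosphatases activate and which works together with polo-like and Aurora kinases. Kinesins then build the spindle, kinetochores attach chromosomes to it, the spindle assembly checkpoint holds back anaphase until attachment is complete, and the anaphase-promoting complex ends the block by marking securin and cyclin B for destruction. Many of these genes are transcribed mainly in G2 and mitosis, through promoters with CCAAT boxes and a cell cycle genes homology region (CHR), which the DREAM, B-MYB and FOXM1 complexes recognise. Doxorubicin poisons topoisomerase II and breaks DNA, and damaged cells can stop before mitosis.

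Most of the 38 genes were lower in the libraries given 1035, each by less than 2-fold. In 1035 against DMSO, 29 genes were lower and 1, PTTG1, was higher at a false discovery rate of 0.05 (edgeR's quasi-likelihood test, adjusted over all genes tested), against 24.8% of all genes tested called lower and 24.2% called higher. The median log2 fold change of the 38 was -0.33, and that of all genes tested was 0.01. The other 4 libraries give the combination against doxorubicin, where 29 were lower and 2 higher, against 22% and 21.8% of all genes, with a median of -0.31. When the 4 libraries given 1035 were set against the 4 that were not, 31 genes were lower with no overlap of CPM (a gene's reads scaled to the reads of its library, with TMM factors), 1 was higher with no overlap and 6 overlapped, against 24.7% of all genes lower and 24.5% higher without overlap. The plot of levels by library shows this split. In total RNA from a culture, fewer cells in G2 and mitosis and less RNA of these genes per cell cannot be told apart.

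**Figure D1:**
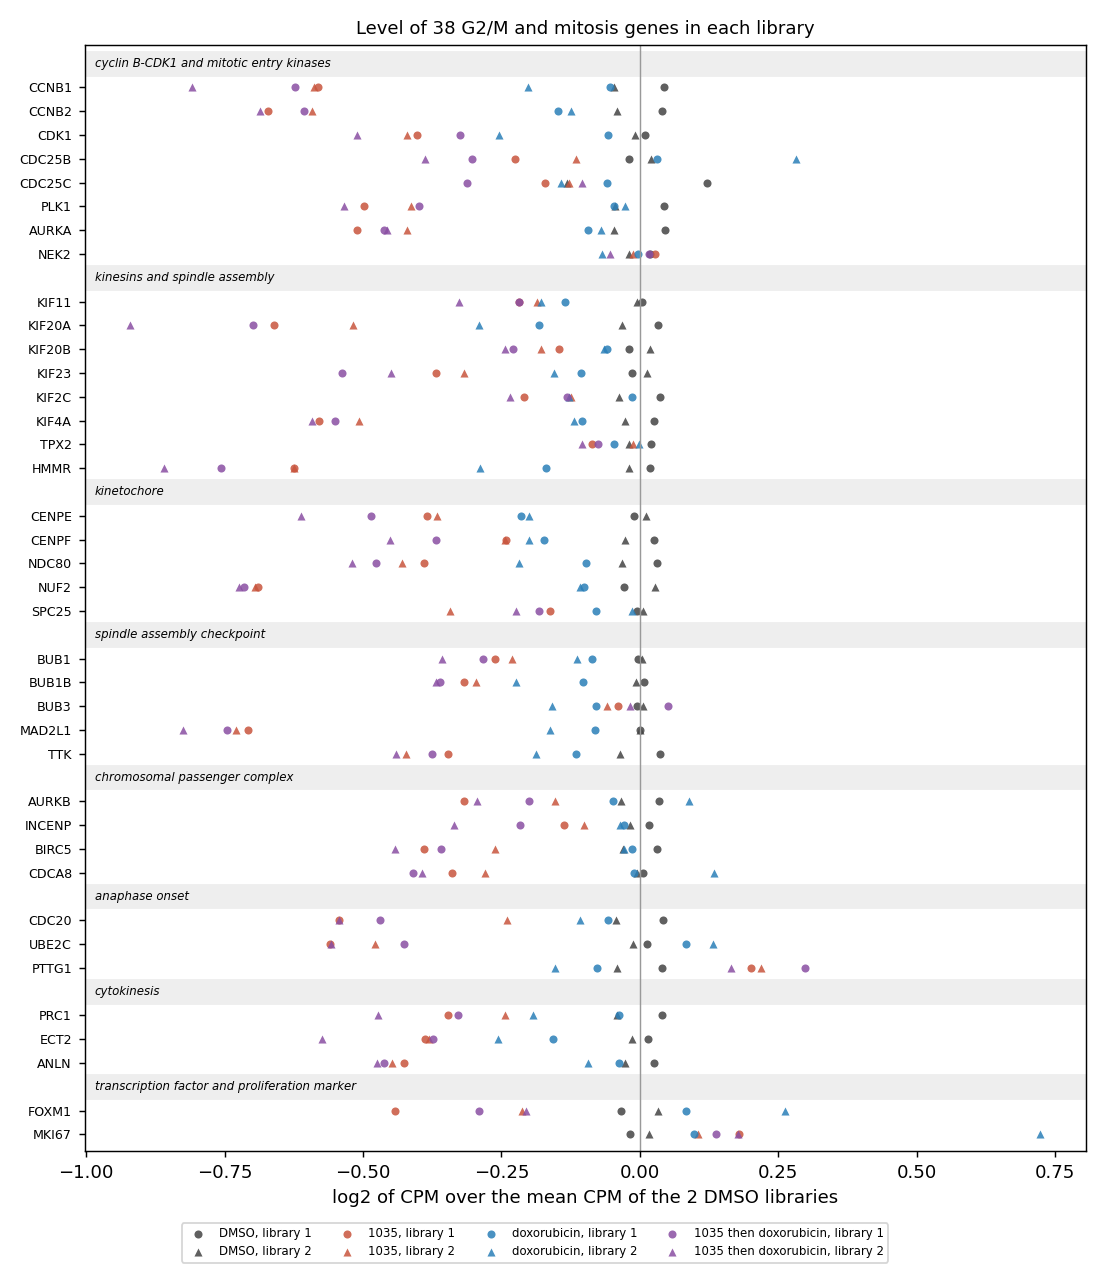
Level of each of the 38 genes in each of the 8 libraries, as log2 of its CPM over the mean CPM of both DMSO libraries, with genes grouped by role. Points of 1035 and the combination lie left of the others for 31 genes, to the right for PTTG1, and overlap with them for CDC25C, NEK2, KIF2C, TPX2, BUB3 and MKI67.

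Depth was 11760542 to 18144670 reads per library. The spread within a treatment, as chi-square per degree of freedom against sampling noise, was largest between the 2 doxorubicin libraries at 4.50, and it was 3.10 for 1035, 2.16 for the combination and 1.76 for DMSO. Among members this showed in MKI67, which was at 452 CPM in the first doxorubicin library and 698 CPM in the second. By the ratio of the second library to the first it ranked 11 of 8695 genes with a mean count at least that of the lowest member. All 10 markers of B-cell precursors were counted in every library, with a summed level of 2498 to 3809 CPM, lower in the 4 libraries given 1035 (2498 to 2565 CPM) than in the others (3538 to 3809 CPM). The sum hides both directions, since 7 of the 10 were lower and 3 higher in 1035 against DMSO, from -1.80 for IGLL1 to 0.43 for CD79A with a median of -0.20. Of 5 myeloid markers 4 were tested, at a summed 23.8 to 27.5 CPM without 1035 and 33.0 to 39.7 CPM with it, and 2 of them were higher and 1, LYZ, lower in 1035 against DMSO. Of 4 stromal markers 3 were tested, at 53.6 to 58.8 CPM without 1035 and 122 to 140.3 CPM with it. The 4 T-cell and 3 erythroid markers did not have counts in all libraries. The part of these marker shifts in the results for the mitotic genes was not tested.

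The members' promoters were searched for the motifs that such genes are known to share. The RefSeq table (GRCh38.p14) held 41 windows, each from 250 bases before an annotated start to 50 after it, for 31 of the 38 members. AURKA, BIRC5, BUB3, FOXM1, TPX2, TTK and UBE2C had no entry. The 140 bases that end just before the start are shown for the B-type cyclins, PLK1, CDC20 and HMMR, which were lower with 1035, and for PTTG1, which was higher. Each is written 5′ to 3′ on the gene's strand, and capitals mark matches on either strand to the CHR (TTTGAA or TTCGAA), the CCAAT box (CCAAT) or the E2F core (GCGGGAA or GCGCGAA).
CCNB1 (chr5:69167010-69167149, + strand): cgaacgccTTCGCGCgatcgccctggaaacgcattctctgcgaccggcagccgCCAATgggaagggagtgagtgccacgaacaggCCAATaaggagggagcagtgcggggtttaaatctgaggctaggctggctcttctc
CCNB2 (chr15:59105006-59105145, + strand): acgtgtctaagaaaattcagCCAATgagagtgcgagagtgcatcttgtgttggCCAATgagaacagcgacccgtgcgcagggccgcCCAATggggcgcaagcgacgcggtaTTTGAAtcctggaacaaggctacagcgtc
PLK1 (chr16:23678749-23678888, + strand): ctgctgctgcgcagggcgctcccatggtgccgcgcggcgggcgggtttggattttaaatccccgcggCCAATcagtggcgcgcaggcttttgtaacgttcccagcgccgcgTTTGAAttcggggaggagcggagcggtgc
CDC20 (chr1:43358841-43358980, + strand): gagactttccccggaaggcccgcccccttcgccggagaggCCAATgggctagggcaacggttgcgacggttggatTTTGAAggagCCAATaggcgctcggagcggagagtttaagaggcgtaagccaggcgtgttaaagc
HMMR (chr5:163460492-163460631, + strand): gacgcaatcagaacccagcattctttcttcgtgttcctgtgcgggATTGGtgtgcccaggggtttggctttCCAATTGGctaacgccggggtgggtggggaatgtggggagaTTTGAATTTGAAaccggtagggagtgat
PTTG1 (chr5:160421715-160421854, + strand): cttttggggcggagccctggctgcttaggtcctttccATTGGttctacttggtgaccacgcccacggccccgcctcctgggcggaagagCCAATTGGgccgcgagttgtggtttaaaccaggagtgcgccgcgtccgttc
CCNB2 held CCAAT boxes at -120, -87 and -54 and a CHR at -29, counted from the annotated start. PLK1 had a single CCAAT box at -73 and a CHR at -29, and CDC20 had CCAAT boxes at -100 and -55 on either side of a CHR at -65. HMMR had overlapping CCAAT matches on opposite strands at -69 and -66, another at -95, and CHR matches side by side at -28 and -22. Neither TTTGAA nor TTCGAA was in the stretches of CCNB1 and PTTG1, although both held CCAAT boxes. Their stretches and that of PLK1 also held TTTAAA, a run that the search left out. Whether CCNB1 and PTTG1 lack a CHR of another form was therefore not settled.

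A CHR match was found in 27 of the 41 member windows (65.9%), against 16.4% of all 35116 windows of the table and 12.1% of the windows of genes tested. CCAAT was in 30 of 41 (73.2%), against 34.6% and 34.9%. The E2F core was in 8 of 41 (19.5%), against 8.54% and 12.3%. Some genes have several windows, so shares were also counted by gene. Of the 31 members 77.4% held a CHR match, 80.6% a CCAAT box and 19.4% an E2F core, against 15.9%, 43.6% and 16.6% of the 9498 genes tested that have a window. Among genes with a single window, the E2F core was in 3 of 25 members (12%) and in 14.1% of genes tested, the CHR in 80% and 11.2% and the CCAAT box in 76% and 38.5%. The excess in members by window was thus absent for the E2F core when each gene had 1 window. Both a CHR match and a CCAAT box were held by 20 members. CHR matches lay from -247 to 44 with a median of -24.5. Neighbouring CCAAT matches were a median of 33 bases apart over 31 pairs (range 3 to 188). Windows of the same gene can overlap, so some sites, such as those of PTTG1, count more than once. The spacing of 3 comes from CCAATTGG, which matches on both strands. The 24 members with a CHR match had a median log2 fold change of -0.33 in 1035 against DMSO, and 19 of them were called lower. The 7 without TTTGAA or TTCGAA, CCNB1, NEK2, KIF20A, KIF2C, CENPE, AURKB and PTTG1, had a median of -0.23 and included 5 called lower. For the CCAAT box the medians lay the other way, at -0.30 for the 25 members with one (18 called lower) and -0.39 for the 6 without (6 called lower), and for the E2F core they were -0.33 for 6 members with one (3 called lower) and -0.31 for 25 without (21 called lower). Of all genes tested 24.8% were called lower in 1035 against DMSO. Lower levels were also seen in members whose window lacks these letters, and differences between these sets were not tested. A match is a run of letters, and no binding was measured.

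**Figure D2:**
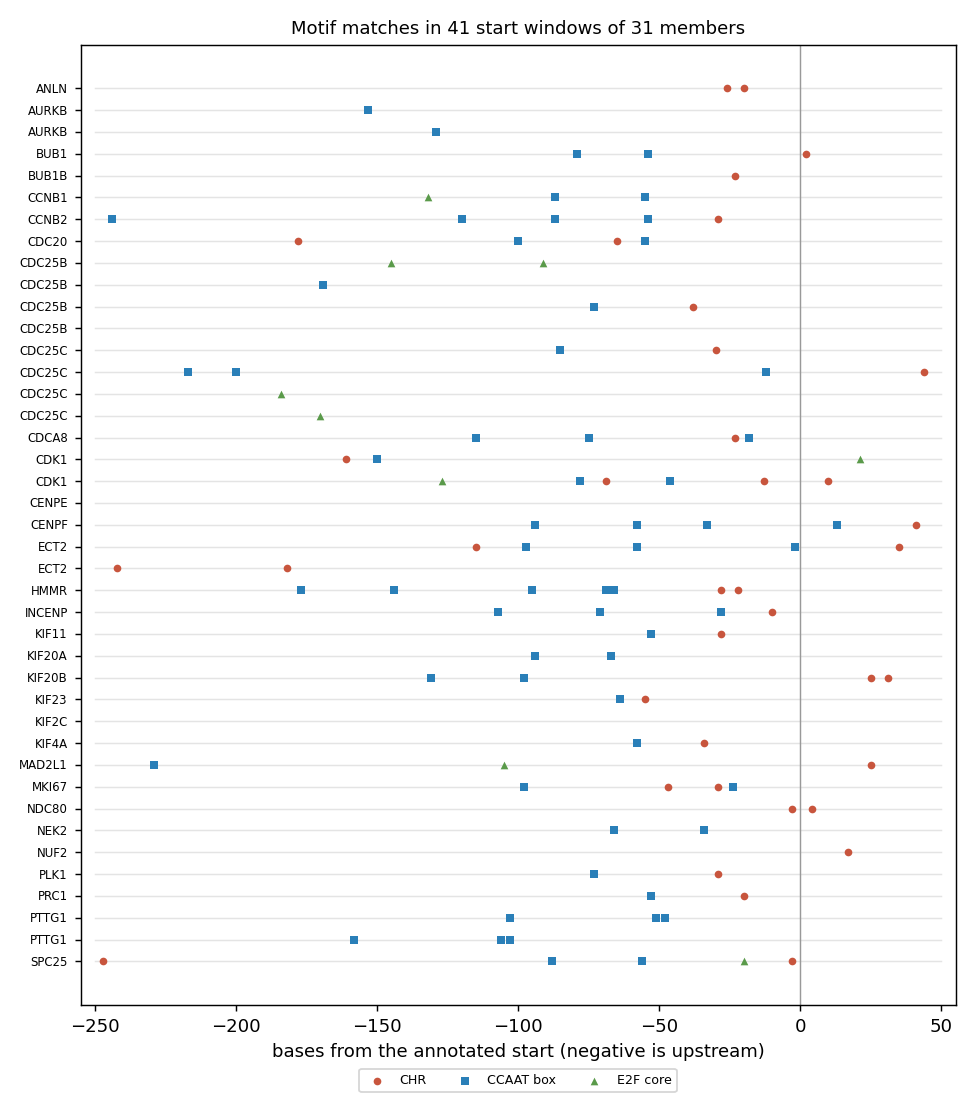
Positions of CHR, CCAAT box and E2F core matches in 41 windows of 31 members, in bases from the annotated start. CHR matches gather near the start, with a median of -24.5.

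Among the genes of mitotic entry, both B-type cyclins were lower with 1035. CCNB2, a cyclin partner of CDK1, stood at 123 and 117 CPM in DMSO, 75.4 and 79.6 with 1035, 108 and 110.1 with doxorubicin and 78.9 and 74.6 with the combination. All 4 libraries given 1035 were below all 4 others, and its log2 fold change in 1035 against DMSO, -0.63 ± 0.06 (SE, adjusted p = 6.61e-11), was the largest of the group. CCNB1, the main mitotic cyclin, was at 119.9 and 113 CPM in DMSO, 77.7 and 77.4 with 1035, 112 and 101 with doxorubicin and 75.5 and 66.4 with the combination. The groups did not overlap, with log2 fold changes of -0.58 ± 0.07 (SE, adjusted p = 2.62e-09) in 1035 against DMSO and -0.59 ± 0.07 (SE, adjusted p = 4.04e-09) in the combination against doxorubicin. CDK1, the kinase itself, was at 259.6 and 256 CPM in DMSO, 195 and 193 with 1035, 248 and 216 with doxorubicin and 206 and 181 with the combination. It was lower in every library given 1035, by a smaller -0.41 ± 0.06 (SE, adjusted p = 1.86e-06) against DMSO. CDK1 fell by 0.26 ± 0.07 on the log2 scale (adjusted p = 0.00109) in the combination against doxorubicin. That call was lost without doxorubicin library 1 (adjusted p = 0.0526) or combination library 2 (adjusted p = 0.096).

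The polo and Aurora kinases followed. PLK1, which drives centrosome maturation and mitotic entry, measured 65.3 and 61.5 CPM in DMSO, 44.9 and 47.6 with 1035, 61.4 and 62.3 with doxorubicin and 48.1 and 43.8 with the combination. Again the libraries given 1035 lay below the rest, with a log2 fold change of -0.46 ± 0.08 (SE, adjusted p = 3.96e-06). AURKA, the spindle pole kinase, measured 88.8 and 83.3 CPM in DMSO, 60.4 and 64.3 with 1035, 80.7 and 82.0 with doxorubicin and 62.5 and 62.7 with the combination, and its log2 fold change was -0.47 ± 0.07 (SE, adjusted p = 3.01e-07) against DMSO and -0.38 ± 0.07 (SE, adjusted p = 1.77e-05) in the combination against doxorubicin. Of the phosphatases that activate CDK1, CDC25B had 39.6 and 40.7 CPM in DMSO and 34.3 and 37.1 CPM in 1035, and it did not pass in that comparison. CDC25B was lower in the combination against doxorubicin, -0.50 ± 0.09 (SE, adjusted p = 1.50e-05), where the second doxorubicin library was its highest at 48.8 CPM. CDC25C did not pass in any comparison. NEK2, a kinase of centrosome separation, was the exception in the group. Its values were 53.6 and 52.3 CPM in DMSO, 54.0 and 52.5 with 1035, 52.8 and 50.5 with doxorubicin and 53.6 and 51.0 with the combination. They overlapped throughout, with a log2 fold change of 0.01 (95% interval -0.14 to 0.16) in 1035 against DMSO. In all, 5 of the 8 entry genes were lower in 1035 against DMSO, with a median log2 fold change of -0.43.

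Of the 8 kinesins and spindle assembly factors, 7 were lower in 1035 against DMSO, with a median log2 fold change of -0.27. HMMR, a microtubule-binding spindle protein, was at 189 and 184 CPM in DMSO, 121 and 121 with 1035, 165 and 152 with doxorubicin and 110.2 and 103 with the combination. No library given 1035 reached the lowest of the others, and the log2 fold change was -0.62 ± 0.06 (SE, adjusted p = 3.20e-11). KIF20A, a kinesin of the central spindle, fell by 0.59 ± 0.07 (SE, adjusted p = 4.60e-09) on the log2 scale, and the chromosome-bound kinesin KIF4A by 0.54 ± 0.06 (adjusted p = 2.66e-09). KIF23, the motor of centralspindlin, had a log2 fold change of -0.34 and KIF11, the motor that separates the spindle poles, one of -0.20. KIF20B at -0.16 and KIF2C, a microtubule depolymerase, at -0.17 were closest to the threshold. Both lost their calls with the filter at a mean normalised count of 50 (adjusted p = 0.0808 and 0.0858) and with library totals in place of TMM (0.169 and 0.174). KIF20B was also lost without DMSO library 1 (0.0674), DMSO library 2 (0.162) or 1035 library 2 (0.095), and KIF2C without DMSO library 1 (0.224) or 1035 library 1 (0.181) and with DESeq2 (0.0522). TPX2, which activates AURKA on the spindle, measured 253 and 246 CPM in DMSO, 235 and 247 with 1035, 242 and 249 with doxorubicin and 237 and 232 with the combination. These values overlapped, and the log2 fold change was -0.05 with a 95% interval of -0.17 to 0.07, or 0.02 with library totals.

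Kinetochore genes were lower in 4 of 5 cases in 1035 against DMSO, with a median of -0.38. NUF2, a subunit of the NDC80 complex that binds microtubules, was at 70.7 and 73.5 CPM in DMSO, 44.7 and 44.5 with 1035, 67.2 and 66.9 with doxorubicin and 43.9 and 43.6 with the combination. The libraries given 1035 were tightly placed below all others, and the log2 fold change was -0.69 ± 0.07 (SE, adjusted p = 2.31e-10). Its partner NDC80 changed by -0.41 ± 0.06 (SE, adjusted p = 1.06e-06) and CENPE, a kinetochore kinesin, by -0.38 ± 0.06 (SE, adjusted p = 1.05e-06). The third NDC80 complex subunit counted here, SPC25, had the lowest counts of any member and did not pass, although its 1035 libraries (17.5 and 15.4 CPM) were below DMSO (19.5 and 19.6 CPM). CENPF, a large protein of the outer kinetochore, had the smallest change of the group at the highest level. It measured 1423 and 1372 CPM in DMSO, 1182 and 1181 with 1035, 1239 and 1216 with doxorubicin and 1083 and 1022 with the combination. Its libraries separated fully, with a log2 fold change of -0.24 ± 0.06 (SE, adjusted p = 3.96e-04). On a per-length scale, as CPM per kilobase in DMSO, the level was 119.6 for CENPF, 31.1 for NDC80, 24.7 for CENPE, 21.4 for NUF2 and 10.6 for SPC25. Length here is that implied by the deposited counts and FPKM, which may differ from that of the transcripts expressed. With 1035 the mean of NUF2 was 61.9% of its DMSO mean, that of NDC80 75.3% and that of SPC25 84.1%. Differences between subunits were not tested.

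In the spindle assembly checkpoint 4 of 5 genes were lower in 1035 against DMSO, with a median of -0.31. MAD2L1, which encodes the MAD2 protein that inhibits CDC20, had the largest change of all 38. It measured 142 and 142 CPM in DMSO, 86.9 and 85.7 with 1035, 134 and 127 with doxorubicin and 84.7 and 80.2 with the combination. Both 1035 libraries and both combination libraries were far below the rest, with log2 fold changes of -0.72 ± 0.06 (SE, adjusted p = 1.12e-12) in 1035 against DMSO and -0.67 ± 0.06 (SE, adjusted p = 1.41e-11) in the combination against doxorubicin. The checkpoint kinases BUB1 and TTK had log2 fold changes of -0.25 ± 0.06 (SE, adjusted p = 3.31e-04) and -0.38 ± 0.06 (SE, adjusted p = 2.41e-06), and BUB1B, which encodes BUBR1, -0.31 ± 0.06 (SE, adjusted p = 2.17e-05). BUB3, which recruits BUB1 and BUBR1 to kinetochores, measured 453 and 456 CPM in DMSO, 442 and 436 with 1035, 430.0 and 407 with doxorubicin and 471 and 449 with the combination. The groups overlapped, and the log2 fold change in 1035 against DMSO was -0.05 (95% interval -0.16 to 0.06), or 0.02 with library totals. BUB3 was called higher in the combination against doxorubicin at 0.14 ± 0.06 (SE, adjusted p = 0.049), a call lost in 8 of 16 alternative settings. Per kilobase of implied gene length BUB3 was the highest member in DMSO at 142 CPM. It was followed in its group by BUB1B at 78.8, BUB1 at 60.4, TTK at 26.4 and MAD2L1 at 24.7. The implied lengths, such as 5756 bases for MAD2L1 and 6040 for BUB1, may not be those of the transcripts expressed. The order of transcript abundance may therefore differ.

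**Figure D3:**
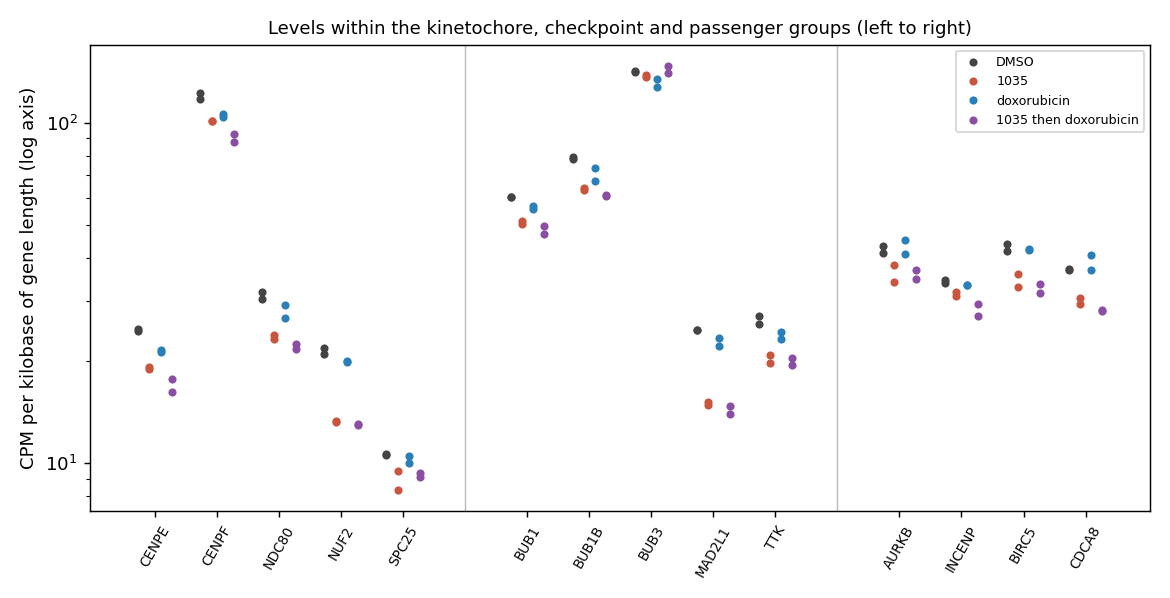
CPM per kilobase of gene length, on a log axis, for the kinetochore, checkpoint and chromosomal passenger genes, with 1 point per library and colours for the 4 treatments. Gene length is that implied by the deposited counts and FPKM. BUB3 and CENPF lie highest, at 142 and 119.6 in DMSO, and the points of MAD2L1 and NUF2 with 1035 lie well apart from those without it.

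The chromosomal passenger complex places Aurora B at centromeres and then at the midzone. In 1035 against DMSO 3 of its 4 genes were lower, with a median of -0.27. BIRC5, which encodes survivin, was at 168 and 161 CPM in DMSO, 125 and 137 with 1035, 163 and 161 with doxorubicin and 128 and 121 with the combination, and its log2 fold change was -0.32 ± 0.06 (SE, adjusted p = 2.45e-05). AURKB, the kinase of the complex, was at 97.4 and 92.9 CPM in DMSO, 76.4 and 85.6 with 1035, 92.0 and 101 with doxorubicin and 82.8 and 77.6 with the combination. The libraries given 1035 were all lower, but the log2 fold change of -0.23 ± 0.07 (SE, adjusted p = 0.00424) lost its call without DMSO library 1 (adjusted p = 0.0794) or 1035 library 1 (adjusted p = 0.137). CDCA8, or borealin, changed by -0.31 ± 0.07 (SE, adjusted p = 1.57e-04). INCENP, the scaffold, was at 155 and 151 CPM in DMSO, 139 and 143 with 1035, 149.8 and 149 with doxorubicin and 132 and 121 with the combination. Its libraries did not overlap, yet -0.12 ± 0.06 (SE, adjusted p = 0.0998) in 1035 against DMSO missed the threshold, while -0.24 ± 0.06 (SE, adjusted p = 0.00111) in the combination against doxorubicin passed. That second call was lost without combination library 2 (adjusted p = 0.0592). In DMSO the complex's members lay at 34.1 to 43.0 CPM per kilobase of implied gene length. On that scale AURKB and BIRC5 did not differ beyond their spread.

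Genes of anaphase onset went both ways. UBE2C, the ubiquitin-conjugating enzyme of the anaphase-promoting complex, was at 128 and 126 CPM in DMSO, 86.4 and 91.4 with 1035, 135 and 139.5 with doxorubicin and 94.8 and 86.5 with the combination. All libraries given 1035 were lower, with a log2 fold change of -0.52 ± 0.06 (SE, adjusted p = 6.30e-09). CDC20, the activator of that complex, fell by 0.39 ± 0.07 on the log2 scale (adjusted p = 5.10e-05). PTTG1, which encodes securin, the inhibitor that the complex destroys, was at 122 and 115 CPM in DMSO, 136 and 138 with 1035, 112 and 106 with doxorubicin and 146 and 133 with the combination. It was the only member with every library given 1035 above every other. Its log2 fold change was 0.21 ± 0.06 (SE, adjusted p = 0.00482) in 1035 against DMSO and 0.35 ± 0.06 (SE, adjusted p = 1.55e-05) in the combination against doxorubicin. The first call was lost without DMSO library 2 (adjusted p = 0.104). A near copy of the gene, PTTG2, exists in the genome, and the sources used here do not give how reads were shared between them.

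All 3 cytokinesis genes were lower in 1035 against DMSO, with a median of -0.39. ANLN, the contractile ring scaffold anillin, was at 163 and 158 CPM in DMSO, 119.5 and 118 with 1035, 156 and 150.3 with doxorubicin and 117 and 115 with the combination, a log2 fold change of -0.44 ± 0.06 (SE, adjusted p = 7.63e-08). PRC1, which bundles midzone microtubules, was at 106 and 99.9 CPM in DMSO, 80.8 and 86.8 with 1035, 100.1 and 89.9 with doxorubicin and 81.8 and 74.0 with the combination, a log2 fold change of -0.30 ± 0.07 (SE, adjusted p = 3.82e-04). In both, the groups with and without 1035 did not overlap. ECT2, the exchange factor that starts furrowing, changed by -0.39 ± 0.07 (SE, adjusted p = 4.27e-06).

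FOXM1, a transcription factor for many mitotic genes, was at 67.4 and 70.7 CPM in DMSO, 50.8 and 59.6 with 1035, 73.2 and 82.9 with doxorubicin and 56.5 and 59.9 with the combination. Its libraries given 1035 were lower without overlap, with a log2 fold change of -0.33 ± 0.08 (SE, adjusted p = 6.23e-04) against DMSO, a call lost without 1035 library 1 (adjusted p = 0.0573). MKI67, the Ki-67 proliferation antigen, was at 418 and 428 CPM in DMSO, 479 and 454 with 1035, 452 and 698 with doxorubicin and 465 and 478 with the combination. DMSO libraries were its lowest and the second doxorubicin library stood far above the rest. MKI67 had a log2 fold change of 0.14 ± 0.22 (SE, adjusted p = 0.649) in 1035 against DMSO, so it was not called. MKI67 was called higher at 0.14 with only DMSO and 1035 in the fit (adjusted p = 0.0107), without doxorubicin library 1 (0.0139) or without doxorubicin library 2 (0.0113). The authors' deposited table of 1035 against DMSO also held MKI67 and PTTG1 as higher at an adjusted p under 0.05, with 29 members lower. Of all genes it held, 19.9% were lower and 17.5% higher.

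Set side by side, the 4 role groups named first had these medians in 1035 against DMSO: -0.43 for mitotic entry, -0.27 for kinesins and spindle assembly, -0.38 for kinetochores and -0.31 for the checkpoint. They were, in the combination against doxorubicin, -0.40, -0.27, -0.34 and -0.22. Within groups the changes in 1035 against DMSO ran from -0.63 (CCNB2) to 0.01 (NEK2), from -0.62 (HMMR) to -0.05 (TPX2), from -0.69 (NUF2) to -0.24 (CENPF) and from -0.72 (MAD2L1) to -0.05 (BUB3). These ranges were wider than the distance between the medians, and differences between groups were not tested. Summed over the 8 entry genes the level was 773 and 743 CPM in DMSO, 561 and 571 with 1035, 724 and 690.1 with doxorubicin and 574 and 529.8 with the combination. The summed kinesin and spindle genes gave 1478 and 1452 CPM in DMSO, 1191 and 1231 with 1035, 1368 and 1328 with doxorubicin and 1172 and 1118 with the combination. Both sums were lower in each library given 1035 than in any other. Across the 38 genes the log2 fold change in 1035 against DMSO had a Pearson r of 0.22 with log2 mean CPM and 0.12 with log2 gene length, as a description over genes that share libraries.

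**Figure D4:**
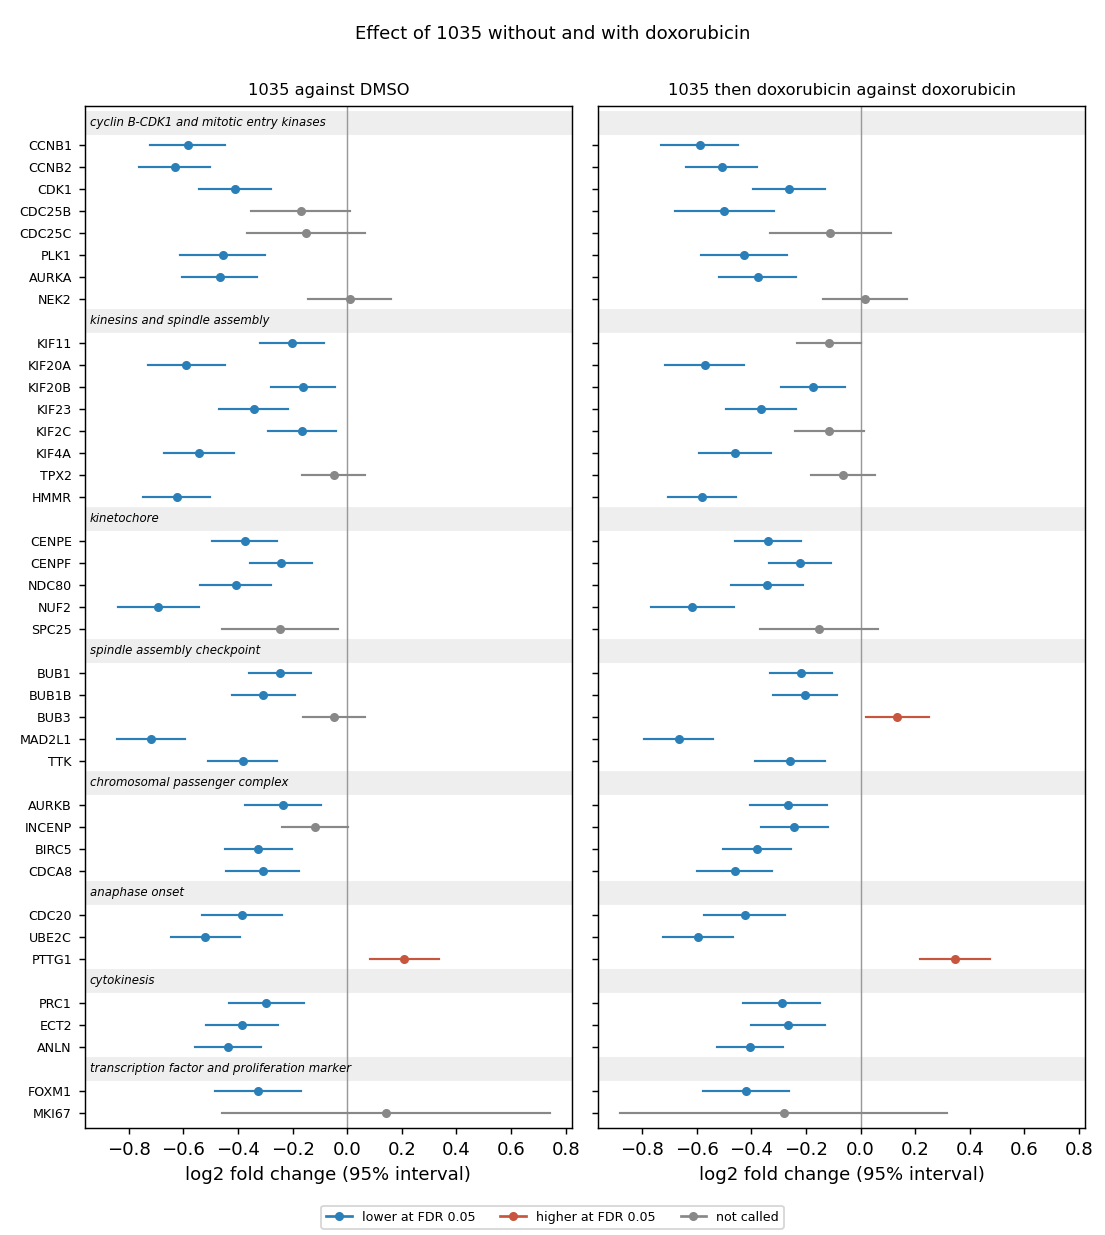
Log2 fold changes with 95% intervals of the 38 genes for 1035 against DMSO (left) and for the combination against doxorubicin (right), coloured by call at a false discovery rate of 0.05. The panels share no library, and 29 genes are lower in each.

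The effect of 1035 was estimated with doxorubicin present as well as without. With it, 36 h of 1035 and then 10 h of doxorubicin were set against 10 h of doxorubicin. Length of treatment thus also differed there and in the interaction, and its part was not tested. In the authors' deposited table of the combination against doxorubicin 28 members were lower and 1 higher, against 13.7% and 12.5% of all genes. The 2 estimates here share no library, and 36 of 38 members had the same sign in both. The Pearson r across the 38 genes was 0.85 (Spearman's rho 0.83), and over the 8695 genes with counts at least those of the lowest member it was 0.94, with 7785 of the same sign. Over all 16320 genes tested it was 0.54 (Spearman's rho 0.78), with 13687 of the same sign. Genes are not independent replicates, so no p is given. In the combination against DMSO, 31 members were lower and 1 higher, against 24.7% and 24.5% of all genes, with a median of -0.40. The largest falls there were in HMMR, -0.81 ± 0.06 (SE, adjusted p = 3.94e-14), KIF20A, -0.80 ± 0.07 (SE, adjusted p = 3.55e-12), MAD2L1, -0.78 ± 0.06 (SE, adjusted p = 1.02e-13), and NUF2, -0.72 ± 0.07 (SE, adjusted p = 9.21e-11). The mean of HMMR in the combination was 57.2% of its DMSO mean. In the interaction, which subtracts the effect of 1035 in the absence of doxorubicin from that in its presence, 0 of 38 members passed in edgeR and 0 in DESeq2, and 2, CDC25B and BUB3, had an unadjusted p under 0.05. Of all genes 0% were called lower and 0.0184% higher in it, and 4.82% had an unadjusted p under 0.05, so the share of members is near that of all genes. The interaction estimates ran from -0.42 for MKI67 to 0.18 for BUB3. Without doxorubicin library 1, MKI67 (-0.71, adjusted p = 1.19e-09) and CDC25B (-0.45, adjusted p = 0.0476) were called lower in it, as were 1.06% of all genes, with 0.388% higher. Doxorubicin is then 1 library, that in which both genes were at their highest, and it is assumed to vary like the other groups. Without doxorubicin library 2 the estimates were -0.08 for MKI67 and -0.20 for CDC25B, and neither was called.

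With doxorubicin alone, few of the 38 genes passed the test. Against DMSO 1 member was lower and 0 higher, where 0.545% of all genes were lower and 0.784% higher. The median log2 fold change was -0.10, 32 of 38 estimates were negative, and 14 had an unadjusted p under 0.05, as did 13.3% of all genes. The gene called was HMMR, at -0.23 ± 0.06 (SE, adjusted p = 0.0425), with both doxorubicin libraries below both DMSO libraries. Its call was lost in 8 of 16 alternative settings. The count of members called was 9 (7 lower and 2 higher) without doxorubicin library 1, where 3.31% of all genes were lower and 3.84% higher, and 0 without DMSO library 1, DMSO library 2, doxorubicin library 2 or either combination library. KIF20A, at -0.23 ± 0.07 (SE, adjusted p = 0.0755), and CENPF, at -0.19 ± 0.06 (SE, adjusted p = 0.0865), came near the threshold. CENPF was the only member called lower in the authors' deposited table of that comparison, where 0.34% of all genes were lower and 0.137% higher. FOXM1 had 0.17 ± 0.08 (SE, adjusted p = 0.304) and CCNB1 -0.12 ± 0.07 (SE, adjusted p = 0.429). MKI67 had the highest estimate, 0.44 ± 0.22 (SE, adjusted p = 0.507), with a 95% interval of -0.16 to 1.04. It was 0.72 and called without doxorubicin library 1 (adjusted p = 2.71e-15), and 0.09 and not called without doxorubicin library 2 (adjusted p = 0.806). In each of these 2 fits doxorubicin is 1 library, assumed to vary like the other groups. The estimate of 0.44 with both libraries therefore rests mainly on the second. Treatment with doxorubicin for 10 h was set against DMSO for 46 h, and the part of that difference in length was not tested.

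After 1035, no member passed this threshold for doxorubicin. The 1035 group received 1035 for 46 h, and the combination received it for 36 h before doxorubicin. The part of that difference was not tested. In the combination against 1035, 0 of 38 passed in edgeR and 0 in DESeq2, 6 had an unadjusted p under 0.05 against 6.8% of all genes, 31 of 38 estimates were negative and the median was -0.06, while 0.147% of all genes were lower and 0.349% higher. KIF20A had the lowest estimate, -0.21 ± 0.07 (SE, adjusted p = 0.365), and HMMR had -0.18 ± 0.06 (SE, adjusted p = 0.385). The authors' deposited table of this comparison held CENPF alone among members as lower, with 0.0873% of all genes lower and 0.128% higher. The estimates for doxorubicin with and without 1035 had the same sign for 31 of 38 members, with a Pearson r of 0.38 across genes (Spearman's rho 0.39). Over the 8695 genes with counts at least those of the lowest member, 5495 had the same sign and r was 0.30 (rho 0.40). Over all 16320 genes tested 9431 had the same sign, and r was -0.45 while rho was 0.15.

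**Figure D5:**
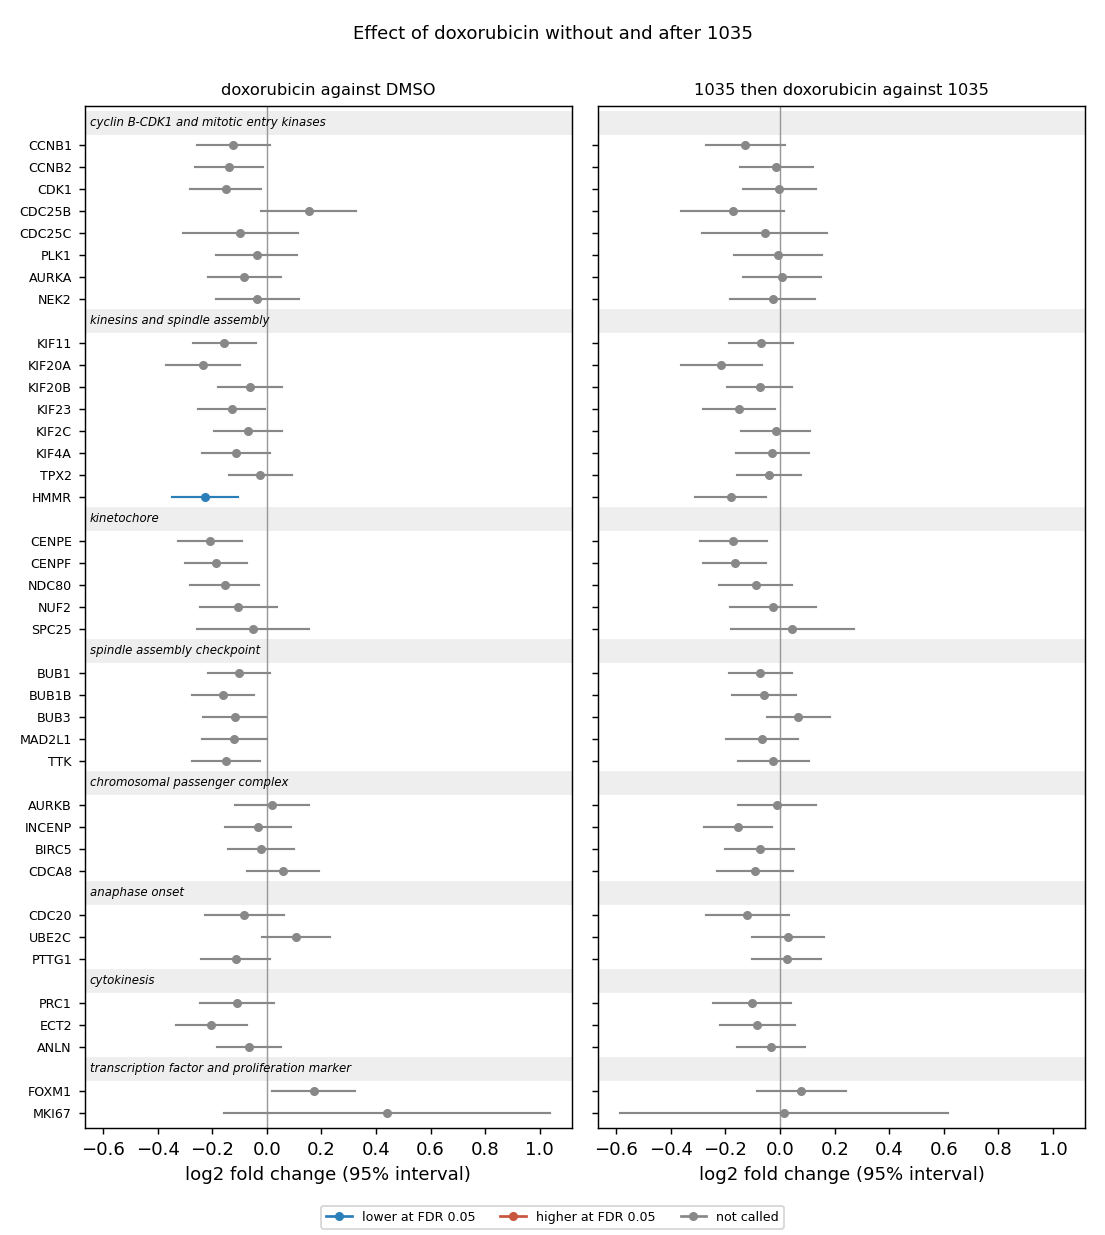
Log2 fold changes with 95% intervals of the 38 genes for doxorubicin against DMSO (left) and for the combination against 1035 (right), coloured by call at a false discovery rate of 0.05. HMMR on the left is the only gene called, and most estimates lie slightly below 0 in both panels.

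Other genes of the mitotic machinery were listed by role. Of 136, 135 were tested, and in 1035 against DMSO 100 were lower and 8 higher, with a median of -0.31. Of all genes tested 24.8% were called lower and 24.2% higher in that comparison, to which all counts in this paragraph belong. Cyclin A and CDK1 regulators were lower in 12 of 13 cases, with CDC25A at -0.72 ± 0.06 (SE, adjusted p = 1.41e-12). Subunits and regulators of the anaphase-promoting complex were lower in 12 of 18, with ANAPC7 at -0.55 ± 0.06 (SE, adjusted p = 2.30e-09), and condensin and cohesin genes in 14 of 20, with STAG1 at -0.99 ± 0.06 (SE, adjusted p = 1.01e-16). Of 30 further kinetochore and centromere genes 25 were lower, led by PMF1 at -1.27 ± 0.11 (SE, adjusted p = 6.66e-13), and 1, CENPT, was higher at 0.29 ± 0.07 (SE, adjusted p = 9.11e-04). Among 25 further spindle, centrosome and cytokinesis genes 20 were lower, such as the centriole kinase PLK4 at -0.89 ± 0.06 (SE, adjusted p = 4.24e-15), and CKAP2L was higher at 0.37 ± 0.07 (SE, adjusted p = 1.20e-05). Of 21 DREAM, MuvB and E2F regulators 14 were lower and 2 higher, with E2F8 at -1.19 ± 0.08 (SE, adjusted p = 4.66e-15) and TFDP2 at 0.29 ± 0.07 (SE, adjusted p = 6.91e-04). The G1/S and DNA replication genes, 48 in number, had 40 lower and 1 higher with a median of -0.40, so lower levels with 1035 were not limited to genes of G2 and mitosis.

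Genes that restrain entry into mitosis were listed as well. Of 8 tested, 4 were higher with doxorubicin against DMSO, where 0.784% of all genes were higher. They were CDKN1A, which encodes the CDK inhibitor p21, GADD45A, PLK2 and BTG2. In the combination against 1035, CDKN1A, PLK2 and PLK3 were higher, as were 0.349% of all genes. In 1035 against DMSO 4 of the 8 were higher and 3 lower, against 24.2% and 24.8% of all genes. BTG2, an antiproliferative gene, was at 52.6 and 50.2 CPM in DMSO, 111 and 97.7 with 1035, 66.6 and 65.0 with doxorubicin and 114 and 112 with the combination, with a log2 fold change of 1.02 ± 0.07 (SE, adjusted p = 1.61e-15) for 1035 against DMSO. PLK3 was at 24.7 and 25.8 CPM in DMSO, 16.0 and 16.7 with 1035, 32.8 and 29.3 with doxorubicin and 25.5 and 26.7 with the combination, with a log2 fold change of -0.63 ± 0.10 (SE, adjusted p = 1.85e-06) for 1035 against DMSO. BTG2 was thus higher than in DMSO both with 1035 and with doxorubicin, while PLK3 in the combination lay near its DMSO level.

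Reads of several members may include those of another gene, since the sources used here do not give the strand setting of the authors' counts. In the GENCODE 29 annotation, exons of CDC25C, PLK1, KIF20A, KIF23, KIF2C, KIF4A, HMMR, NUF2, MAD2L1, PRC1, ANLN and FOXM1 overlap a gene on the opposite strand, and those of BUB1B and PRC1 overlap a gene on the same strand. CCNB2, AURKA, NEK2, BUB1, BUB3, CDC20, UBE2C and MKI67 have pseudogenes named after them. KIF4A has a near copy, KIF4B, and PTTG1 has PTTG2. Values of these genes are therefore less certain than those of the others.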

How the data were processed

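Total RNA was sequenced from 8 libraries (stranded TruSeq kit with Ribo-Zero Gold, 50-base single reads), per the labels. The submitters' processing notes name hg19, Novoalign 2.08.01 and DESeq2 1.4.5. Which counter, strand setting and annotation were used is not given in the sources. The authors deposited 4 tables of raw counts of reads per gene, with FPKM values (reads scaled by gene length and library size, per the file headers), log2 fold changes and adjusted p-values. The deposited counts were joined by Ensembl identifier, and the 132880 counts present in 2 tables did not differ between them. Gene lengths were implied from the deposited counts and FPKM, and they may differ from those of the transcripts expressed.

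Genes were filtered with filterByExpr (288 removed), scaled by TMM, and 4 group means were fitted to all 8 libraries by robust quasi-likelihood in edgeR 4.0.16 (R 4.3.3), with 4 residual degrees of freedom. Two-sided tests were adjusted by Benjamini-Hochberg over 16320 genes at an FDR of 0.05. The common biological coefficient of variation was 4.58%. Tests and intervals also used spread borrowed across genes, worth a median of 35.59 prior degrees of freedom. Standard errors are the log2 fold change divided by the square root of F. The procedure was tested on simulated data. The 2 samples of a treatment are independent, per the series' design text. Promoter windows came from RefSeq (GRCh38.p14) and exon overlaps from GENCODE 29.

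The members and lists were chosen with earlier results of these data known. Levels in every library are given for the members with the largest and smallest change in each role group, those of opposite sign, those called in a doxorubicin comparison, and CCNB1, CDK1, PLK1, AURKA, AURKB, FOXM1 and MKI67. Of other mitotic genes, the member of each role group with the smallest p in each direction is named, and CDKN1A, GADD45A, PLK2 and some further member values were named after their values were seen. Alternatives were DESeq2 1.42.0 and its size factors, a likelihood ratio test, other filters, a replicate block, fits of 2 groups, each library left out and, added after seeing the data, library totals without TMM.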

Additional observations from a re-analysis of the deposited data

How the results depend on the processing

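The counts of members called in 1035 against DMSO, in the combination against doxorubicin and in the combination against DMSO stayed within 1.5 times the reported ones in all 16 settings, and the combination against 1035 gave 0 in each. Doxorubicin against DMSO (1 call) gave 3 with DESeq2, 0 with a filter at a mean of 50, 0 with only the 2 groups, 0 with library totals and 0 to 9 when each library was left out. The interaction gave 0 to 2 when each library was left out. With the replicate number as a replicate block, doxorubicin against DMSO gave 2 calls. Deviations of equal numbers correlated between -0.087 and 0.076 over 6 pairs of groups, and the block moved no other count. This cannot show whether samples of equal number were handled together, since shared handling may leave no such correlation. Of 3610 values under alternatives 98 changed sign, none of them called in either fit, while 50 calls were lost and 29 gained.

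Library totals without TMM, added after seeing the data, moved the median of all genes from 0.01 to 0.08 in 1035 against DMSO. Members called were then 27 lower and 1 higher, and 40.9% of all genes called were lower in place of 50.7%. That share in the combination against DMSO was 39.6% in place of 50.1%. In 1035 against DMSO, TPX2 was 0.0192 and BUB3 0.0193 with library totals, and NEK2 ran from -0.0115 to 0.0295 with each library left out. With each library left out, NEK2 ran from -0.0162 to 0.0539 and MKI67 from -0.564 to 0.0674 in the combination against doxorubicin, and NEK2 from -0.0494 to 0.0203 and BUB3 from -0.0128 to 0.0544 in the combination against DMSO, where NEK2 was also 0.0243 with the filter at 50 and 0.0606 with library totals. The cause of these changes was not tested.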
